A study of Mus musculus with 16 samples.

Results

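Interferon-stimulated genes are genes whose transcription rises when a cell senses interferon. A list of 36 such genes was followed here, each chosen by its symbol. Probes of 34 of the 36 were found by matching the RefSeq accession of each probe, and all 34 passed the filter on dim probes, among 24826 genes measured. No probe matched Mx1 or Mx2. Expression was measured on 16 1-colour Agilent arrays of mouse tibialis anterior, a fast muscle of the lower leg. The control AL group held offspring of normally fed dams, fed ad libitum. The control CR group held offspring of such dams kept under calorie restriction. Undernourished AL and undernourished CR are the same 2 offspring diets in young whose dams received 50% less food in the third week of gestation. Each group had 8 mice, combined in pairs, which gave 4 pools of 2 mice, each hybridised to 1 array. The labels give no strain, age or sex, do not say which pools share a litter, and maternal diet was given to dams, so the pools may not be independent. If pools shared litters, p-values measure only the spread between these pools.

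As background, infected cells detect foreign nucleic acid with sensors such as MDA5 and RIG-I and release interferon. Interferon binds receptors that signal through Janus kinases to a complex that includes STAT2 and IRF9 and binds the interferon-stimulated response element (ISRE) in the promoters of target genes. The targets encode antiviral effectors, regulators that tune the response, GTPases that act on intracellular microbes, and parts of antigen presentation. Uninfected tissue, muscle included, expresses many of them at a basal level.

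Promoter sequences show how the genes share that element. RefSeq promoters (GRCm38.p6, from 250 bases before to 50 bases after the start) were matched for 28 of the 36 genes. The ISRE core was searched as GAAA, any 2 bases and GAAA, and on the other strand as TTTC, any 2 bases and TTTC. It occurred in 16 of 28 (57.1%), against 3.99% of 27025 promoters of the same length. The interferon-gamma activated site, searched as TTC, any 3 bases and GAA, which reads the same on both strands, occurred in 7 of 28 (25%) against 9.55% of all. A match describes letters and is not evidence of binding. The promoters of 5 genes are printed, chosen after their values were seen. Isg15, Ifit1, Xaf1 and Gbp2 had the strongest correlations of array-to-array deviations with the other members, and Ifih1 was the 1 member whose maternal groups did not overlap under calorie restriction. Each line gives the 250 bases before the start that the promoter table uses, 5′ to 3′ on the gene's strand, with ISRE matches on either strand in capitals. Overlapping matches run together in Isg15. For 19 of the 28 genes that start is the outer edge of the annotated gene. For the other 9, Xaf1 among them, it lies inside, and the Xaf1 start is 168 bases inside, so most of its printed window is within the gene.
Isg15 (chr4:156200819-156201068, minus strand): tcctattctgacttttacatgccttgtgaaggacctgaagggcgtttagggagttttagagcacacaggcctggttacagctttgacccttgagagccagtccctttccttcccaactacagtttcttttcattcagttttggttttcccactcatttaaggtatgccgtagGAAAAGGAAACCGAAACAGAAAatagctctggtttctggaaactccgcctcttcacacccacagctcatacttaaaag
Ifit1 (chr19:34640639-34640888, plus strand): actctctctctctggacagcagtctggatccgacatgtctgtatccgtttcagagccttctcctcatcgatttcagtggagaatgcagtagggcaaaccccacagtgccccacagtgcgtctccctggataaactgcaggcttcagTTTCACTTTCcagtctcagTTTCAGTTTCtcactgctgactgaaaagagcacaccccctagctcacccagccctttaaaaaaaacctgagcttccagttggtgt
Gbp2 (chr3:142620413-142620662, plus strand): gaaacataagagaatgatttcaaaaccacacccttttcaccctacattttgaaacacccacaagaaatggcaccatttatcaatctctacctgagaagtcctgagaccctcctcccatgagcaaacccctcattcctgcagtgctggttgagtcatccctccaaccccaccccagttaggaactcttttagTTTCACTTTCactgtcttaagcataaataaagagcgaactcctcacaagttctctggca
Xaf1 (chr11:72301379-72301628, plus strand): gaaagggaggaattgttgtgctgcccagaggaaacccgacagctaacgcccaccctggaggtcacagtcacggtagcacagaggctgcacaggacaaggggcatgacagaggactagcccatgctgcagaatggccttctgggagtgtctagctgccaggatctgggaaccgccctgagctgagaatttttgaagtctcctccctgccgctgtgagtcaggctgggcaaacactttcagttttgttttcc
Ifih1 (chr2:62646256-62646505, minus strand): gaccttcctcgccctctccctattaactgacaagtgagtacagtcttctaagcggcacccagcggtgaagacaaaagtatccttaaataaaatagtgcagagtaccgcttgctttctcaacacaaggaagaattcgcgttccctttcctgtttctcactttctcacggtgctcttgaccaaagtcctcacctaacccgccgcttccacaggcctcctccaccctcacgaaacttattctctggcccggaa
Isg15 held 3 matches, Ifit1 held 2 and Gbp2 held 1 within these 250 bases. Neither the Xaf1 nor the Ifih1 window held one, and the bases before the outer edge of Xaf1 were searched only in part. The 1 match of Ifih1 ended in the 50 bases after its start, and where it began was not recorded.

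Values are log2 of the processed signal minus each array's 75th percentile, so 0 is the level of that percentile, and differences are log2 differences. Between 66.4% and 78.5% of spots were well above background per array, and no spot was saturated. Skeletal muscle markers were high on every array, with a median level of 8.78 to 9.51 over 8 genes. Slides 1 and 2, read on the first scan day, held all AL arrays, and slides 3 and 4, read on the second, all CR arrays, so scan day and offspring diet cannot be told apart. Each slide held both maternal groups. The median of 12 brain markers ranged from -1.70 to 3.05 on the AL arrays and from -6.01 to -5.52 on the CR arrays. The median of 8 skin markers was 0.98, 2.34 and 0.95 on control AL replicates 1 to 3, -1.52 on undernourished AL replicate 3 and -1.30 on undernourished CR replicate 2, against -3.85 to -2.70 on the other arrays. The liver gene Alb stood at -0.94 on undernourished AL replicate 3, against -7.68 to -4.69 elsewhere. In bulk RNA, fewer cells of a type and less RNA per cell cannot be told apart. Probes may share sequence with near-identical copies, such as Ifit3 with Ifit3b and Oas1a with Oas1g, whose signals are then joined.

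The first comparison asked whether maternal undernutrition changed these genes in calorie restricted offspring. No member passed the test between undernourished CR and control CR. Differences were above 0 for 3 of 4 sensors, 4 of 4 GTPases and 3 of 7 modifiers and regulators, and the 95% intervals included 0 for 32 of 34 members. limma called 0 of 34 members and 0% of 24826 genes (adjusted p under 0.05, two-sided). Unadjusted p was under 0.05 for 2 of 34 members, Ifih1 and Dhx58, and for 712 genes (2.87%). The members' median log2 difference was 0.11 against -0.0033 over all genes, with 20 members above 0 and 14 below, where 49.2% of all genes were above 0. These values rested on single arrays: the members' median was -0.0089 (16 above 0, 18 below) without undernourished CR replicate 3 and 0.21 (27 above, 7 below) without replicate 4. Without undernourished CR replicate 1, 6 members had an unadjusted p under 0.05, against 961 of 24826 genes. The median half-width of the members' 95% intervals was 0.42 log2 units.

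Of the 4 sensors, Ifih1 encodes MDA5, a sensor of long double-stranded RNA. Its level was -1.01, -1.16, -1.13 and -1.06 on the control CR arrays and -0.83, -0.75, -0.61 and -0.64 on the undernourished CR arrays. All 4 undernourished arrays lay above all 4 control arrays, and no other member separated the groups in this way (1 of 34, where 2.71% of all genes did not overlap). The log2 difference was 0.38 ± 0.10 (SE, limma adjusted p = 0.9999), with a 95% interval of 0.16 to 0.60. Within slide 3 it was 0.29 and within slide 4 it was 0.47. A second Ifih1 probe, well above background on 8 of 16 arrays, had a difference of -0.26, so the probes disagree in sign. Dhx58 encodes LGP2, a regulator of both RNA sensors. It was at -3.70, -3.11, -2.36 and -3.22 on control CR arrays, against -2.93, -2.42, -2.89 and -1.69 on undernourished CR arrays. The groups overlapped, since control CR replicate 3 lay above 3 undernourished arrays, and the difference of 0.62 ± 0.29 did not pass (limma adjusted p = 0.9999). Ddx58, which encodes RIG-I, differed by 0.22 ± 0.23 and Zbp1, a sensor of Z-form nucleic acid, by -0.054 ± 0.26.

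**Figure D1:**
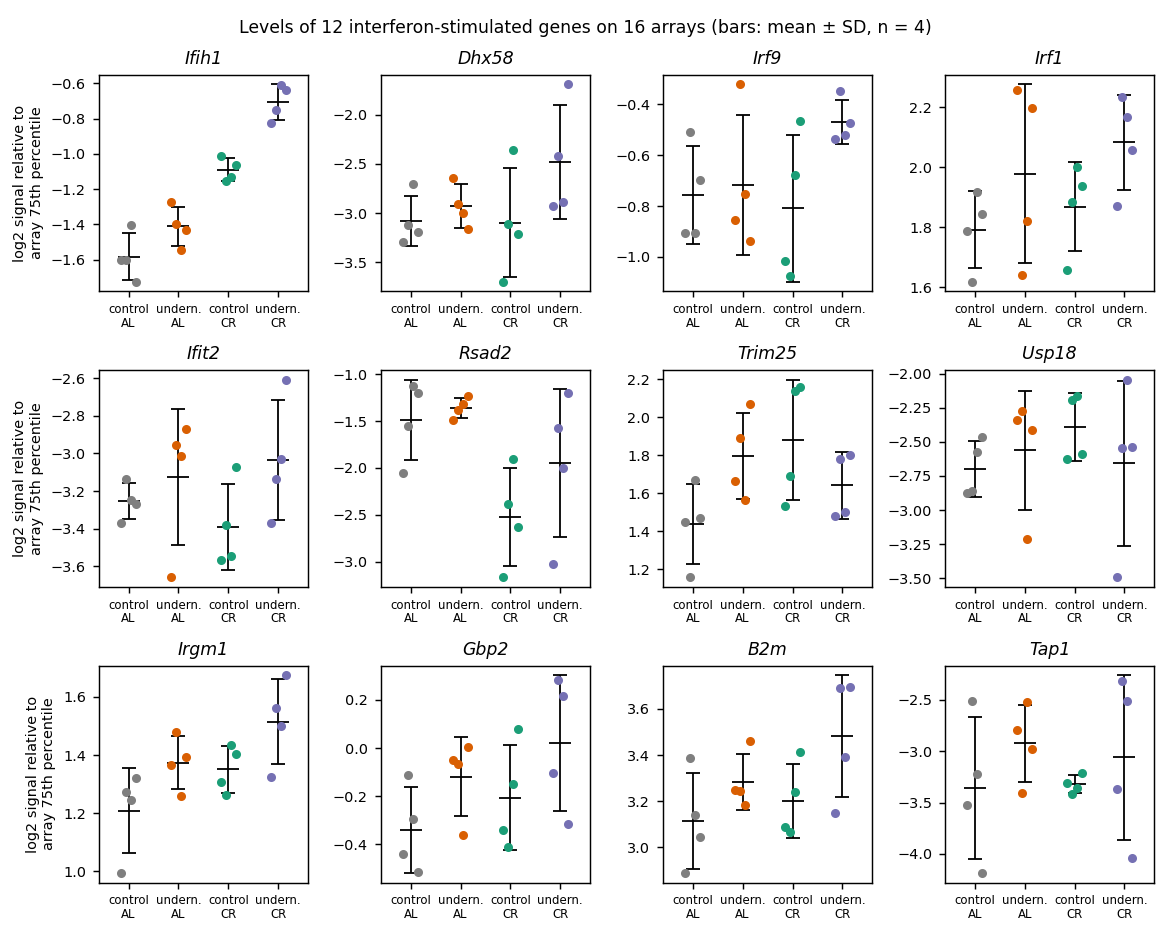
Levels of 12 interferon-stimulated genes (log2 signal relative to the array's 75th percentile, vertical axis) on each array of the 4 groups, with the mean ± SD of 4 arrays as bars. Ifih1 is the gene whose undernourished CR arrays all lie above the control CR arrays, and both CR groups lie above both AL groups for it.

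Among the transcription factors, Irf9 encodes a DNA-binding partner of STAT2. Its level was -1.01, -1.08, -0.68 and -0.47 on control CR arrays, against -0.54, -0.35, -0.52 and -0.47 on undernourished CR arrays. Control CR replicate 4 fell inside the undernourished range and the other 3 control arrays below it, with a difference of 0.34 ± 0.16 (adjusted p = 0.9999). For Irf1, a factor induced by interferon-gamma, control CR was at 1.66, 1.88, 1.999 and 1.94 and undernourished CR at 1.87, 2.23, 2.17 and 2.06. The groups overlapped and the difference was 0.21 ± 0.15. Irf7, which drives interferon-alpha genes, and Stat2 differed by -0.11 ± 0.18 and -0.076 ± 0.15, in the other direction from Irf9 and Irf1.

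The 12 measured antiviral effectors were split evenly, 6 above 0 and 6 below, from -0.28 for Oas2 to 0.87 for Ifit3. Ifit2 encodes a protein that binds viral RNA and blocks its translation. It was at -3.57, -3.38, -3.55 and -3.07 on control CR arrays, against -3.37, -3.14, -3.03 and -2.61 on undernourished CR arrays, a difference of 0.36 ± 0.19 (adjusted p = 0.9999). The groups overlapped, and undernourished CR replicate 4 was the highest of the 8. Rsad2 encodes viperin, which makes a chain-terminating nucleotide. On the control CR arrays Rsad2 stood at -3.16, -2.38, -1.91 and -2.63 and on the undernourished CR arrays at -3.02, -1.57, -2.003 and -1.20. Undernourished CR replicate 1 lay near the lowest control array and replicate 4 above all others, so the difference of 0.57 ± 0.34 was within the spread (adjusted p = 0.9999). Further Rsad2 probes, well above background on all 16 arrays, differed by 0.030 and 0.21. Isg15, a ubiquitin-like protein attached to other proteins, differed by -0.18 ± 0.23, and Ifit1, the RNA-binding relative of Ifit2, by 0.34 ± 0.21.

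The 7 modifiers and regulators had 3 differences above 0 and 4 below. Trim25, the ubiquitin ligase that activates RIG-I, was at 1.53, 1.69, 2.14 and 2.16 on control CR arrays, against 1.48, 1.78, 1.50 and 1.80 on undernourished CR arrays. The groups overlapped, control CR replicates 3 and 4 were the highest, and the difference was -0.24 ± 0.17. Usp18, which removes ISG15 from proteins and dampens receptor signalling, was at -2.63, -2.19, -2.16 and -2.59 and -3.49, -2.55, -2.05 and -2.54 on the same arrays. Its difference of -0.26 ± 0.27 rested on undernourished CR replicate 1, without which it was 0.016.

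All 4 GTPases had differences above 0, from 0.13 to 0.34, and none passed. Irgm1, an immunity-related GTPase that regulates membrane targeting of its relatives, stood at 1.31, 1.26, 1.43 and 1.40 on control CR arrays, against 1.32, 1.56, 1.50 and 1.67 on undernourished CR arrays. For Gbp2, a guanylate-binding protein that attacks pathogen vacuoles, the values were -0.34, -0.41, -0.15 and 0.078 and -0.10, 0.28, 0.22 and -0.32. The groups overlapped for both, with differences of 0.16 ± 0.11 and 0.23 ± 0.16. B2m, the light chain of class I molecules, was at 3.09, 3.07, 3.24 and 3.41 on control CR arrays, against 3.15, 3.69, 3.39 and 3.70 on undernourished CR arrays. Undernourished CR replicates 1 and 3 lay within the control range and the difference was 0.28 ± 0.15 (adjusted p = 0.9999). Tap1, a subunit of the peptide transporter, was at -3.31, -3.42, -3.36 and -3.21 on control CR arrays, against -3.37, -2.32, -2.51 and -4.04 on undernourished CR arrays. Replicates 2 and 3 of undernourished CR were high and replicate 4 was the lowest of all, with a difference of 0.26 ± 0.37. Cxcl10, a chemokine, was well above background on 4 control CR and 2 undernourished CR arrays, and on 2 control AL and 1 undernourished AL arrays.

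**Figure D2:**
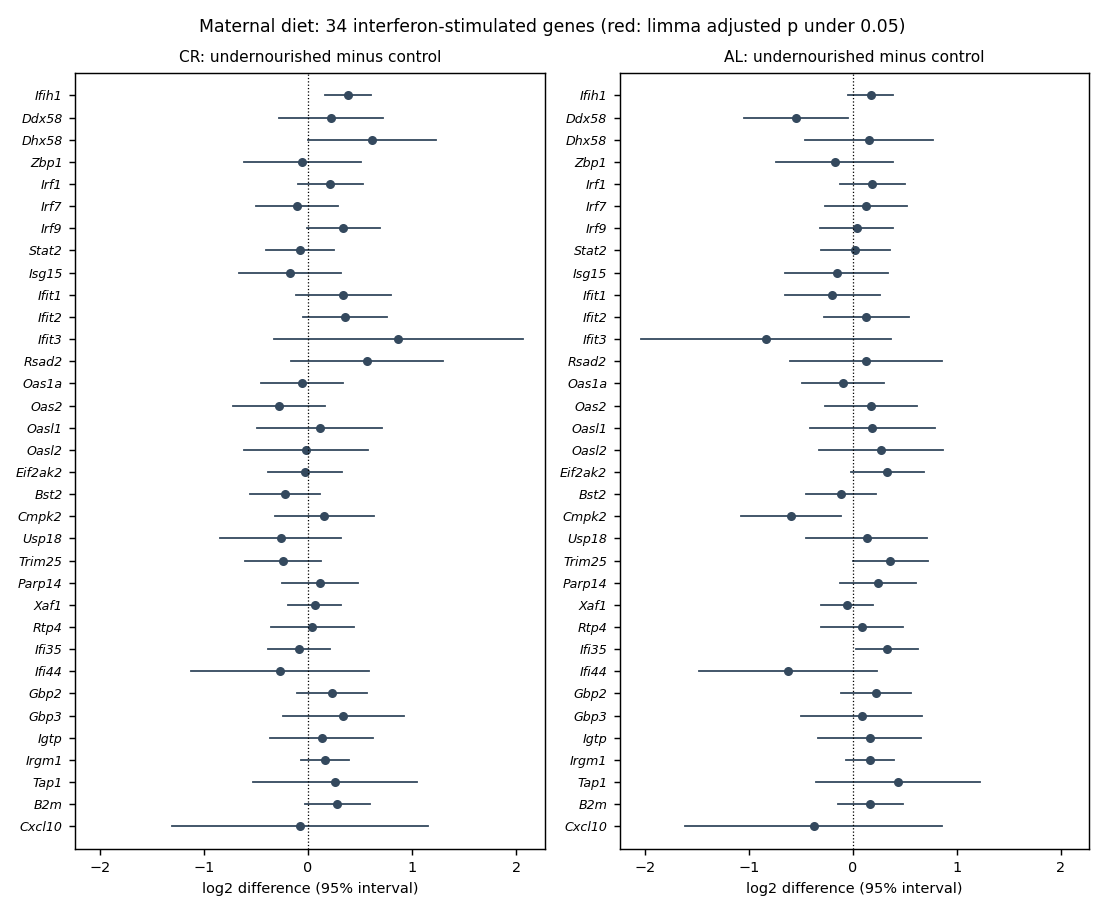
Log2 difference of undernourished minus control (horizontal axis) with 95% intervals for the 34 measured genes, in CR offspring (left) and AL offspring (right), in order of role. No gene is red, so none passed limma's test at an adjusted p under 0.05 in either diet.

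Within undernourished CR, arrays deviated from their group mean in the same direction across many members. The share of the 34 members above their own group mean was 11.8%, 79.4%, 82.4% and 26.5% on replicates 1 to 4, that is 4, 27, 28 and 9 genes. The same share over all 24826 genes was 43.3%, 48.2%, 51.9% and 55.7%. Replicates 2 and 3, on different slides, were thus high for most members, and replicates 1 and 4 low, while all genes stayed near the middle. In undernourished AL, 24 members lay above the mean on replicate 1 and 5 on replicate 3, and in control CR 9 did so on replicate 1. In control AL the counts ran from 13 to 18. Members of 1 sample share their array, so these shares describe arrays and are no test. The median macrophage and leukocyte marker level over 11 genes was -2.21, -1.93, -1.50 and -1.94 on undernourished CR replicates 1 to 4. Its part in the members' shares was not tested.

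**Figure D3:**
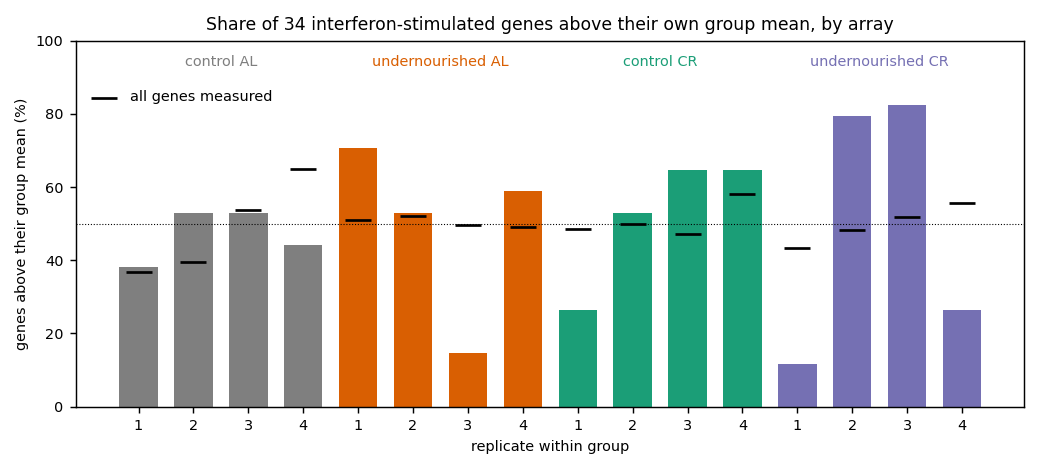
Share of the 34 genes above their own group mean (bars, percent) on each array, by group and replicate, with the same share over all 24826 genes as black marks. Undernourished CR replicates 2 and 3 stand at 79.4% and 82.4% and replicates 1 and 4 at 11.8% and 26.5%, while the marks for all genes lie between 36.7% and 65.0%.

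Over the 16 arrays, each member's deviation from its group mean was correlated with the mean deviation of the other members, as a description in which all points share array and depth. Ifit1 (Pearson r = 0.87), Isg15 (0.86), Xaf1 (0.82) and Gbp2 (0.78) were closest to the other members. Ifit2 (-0.27), Ddx58 (-0.16), Ifi35 (-0.11) and Dhx58 (-0.043) were least alike. Isg15 shows the pattern, at -2.80, -2.17, -1.82 and -2.92 on the undernourished CR arrays, high on replicates 2 and 3 and low on 1 and 4. Ifit1 did likewise at -2.59, -1.61, -1.70 and -2.42. Outside the list, the genes most like the members' mean over the same 16 arrays were Timeless, Neu2, Fgd2, Afmid, Gbp4, Cd55, Klhl26, Uba7, Iigp1 and Klhl25 (r from 0.74 to 0.78). The members' median within-group SD was 0.29 and that of all genes 0.29.

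**Figure D4:**
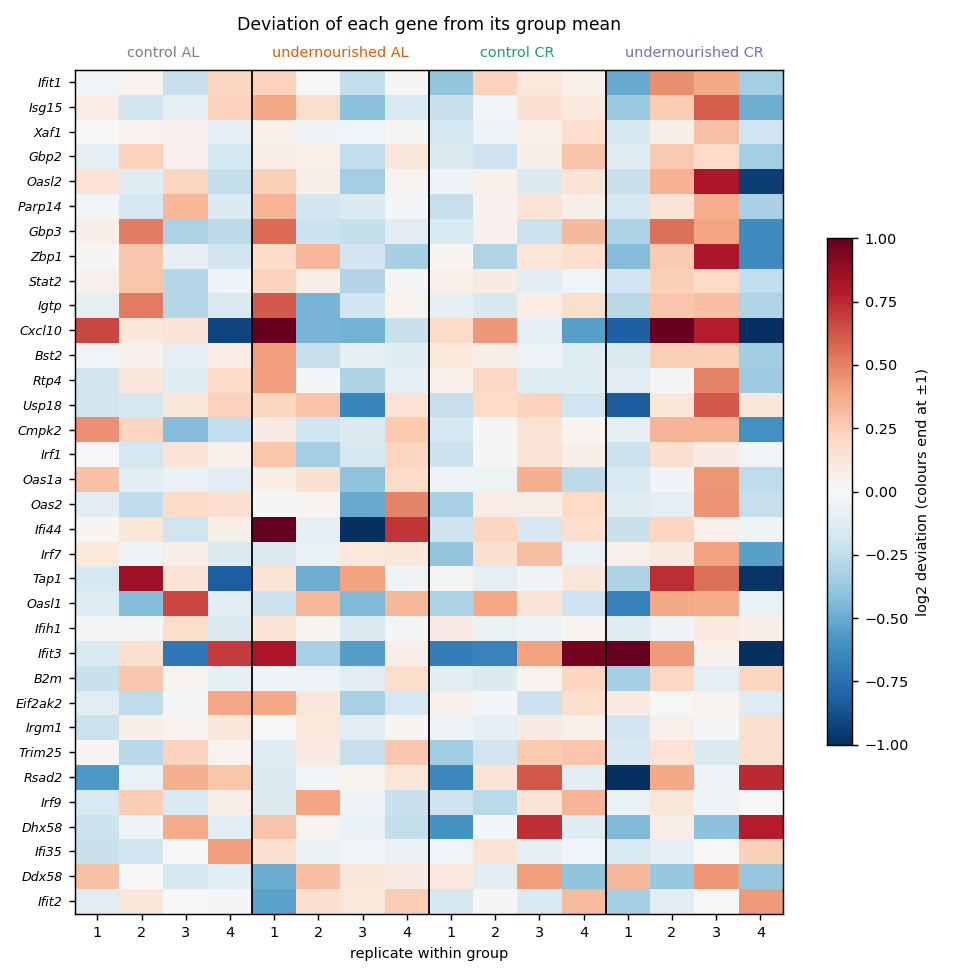
Log2 deviation of each of the 34 genes (rows) from its group mean on the 16 arrays (columns), red above and blue below, with colours ending at ±1. Rows run from Ifit1 (r = 0.87 with the other members) to Ifit2 (-0.27), and the columns of undernourished CR replicates 2 and 3 are mostly red in the upper rows.

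The second comparison set undernourished against control in offspring fed ad libitum. limma called 0 of 34 members, against 0.0322% of all genes (8). With slide as a fixed block it called 0 of 34 members, against 7.92% of genes (1967). Without the block, unadjusted p was under 0.05 for 3 of 34 members against 19.3% of genes (4781). The members' median difference was 0.13, against 0.069 over all genes, and 23 of 34 were above 0, against 59.3% of genes. Ddx58 stood at -2.06, -2.36, -2.53 and -2.47 on control AL arrays, against -3.40, -2.60, -2.78 and -2.82 on undernourished AL arrays. It was the 1 member of 34 whose groups did not overlap, where 5.22% of genes did not, and its difference was -0.54 ± 0.23 (limma adjusted p = 0.22). Its probes disagree in sign here too, since a second probe, well above background on all 16 arrays, differed by 0.21 and another, on 8 of 16, by 0.26. Cmpk2, a mitochondrial nucleotide kinase, was at -1.80, -2.04, -2.69 and -2.51 on control AL arrays, against -2.77, -3.05, -2.995 and -2.60 on undernourished AL arrays. Control AL replicates 1 and 2 stood above all other AL arrays, and the difference of -0.59 ± 0.22 had the smallest adjusted p of the members (0.176). Those 2 arrays also carried the highest brain marker levels, 3.05 and 2.62. With a brain marker level as a covariate in limma, 0 of 34 members had an unadjusted p under 0.05. Over all genes 1141 did with the mean of linear levels and 1102 with the median level. Apart from these fits, the part of brain transcripts in the difference was not tested. Ifi35, a regulator of RIG-I signalling, differed by 0.33 ± 0.14, Trim25 by 0.36 ± 0.17 and Eif2ak2, the kinase PKR that halts translation on double-stranded RNA, by 0.33 ± 0.17 (adjusted p of 0.218, 0.263 and 0.289). Without control AL replicate 4, Ifi35 was called (0.47, adjusted p = 0.0307), as were 2318 of all genes. Ifih1, which separated the maternal groups under restriction, differed by 0.17 ± 0.10 here with overlapping groups.

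The third comparison asked how calorie restriction and ad libitum feeding differed in control offspring. Members changed in both directions. limma called 9 of 34 members (26.5%), against 32.3% of all genes, 4 higher in CR (background 17.3%) and 5 lower (background 15%). The direction of the calls depended on the scaling, for members and for all genes. In the authors' deposited log2 values 17 members were higher and 2 lower, against 11383 and 2608 of 24826 genes. After normexp background correction with a floor 4 members were higher and 11 lower, against 4118 and 7707 of 24719 genes. The members' median difference was -0.035, against 0.067 over all genes, and it was 0.024 without control CR replicate 1. The groups did not overlap for 9 of 34 members, against 31.7% of genes, a set that includes Ifit1 and Ifi44, which were not called, and lacks Rsad2 and Igtp, which were. Brain, skin, macrophage and other tissue markers moved with this contrast. Of 12 brain markers 10 were called lower in CR and 1 higher, of 8 skin markers 7 lower, and of 11 macrophage and leukocyte markers 8 lower, with a median of -1.01. The macrophage markers' summed linear level ran from 4.69 to 8.68 on control AL and from 2.29 to 3.14 on control CR. Fits with a brain marker level as a covariate are given in the last section. Apart from these fits, the part of these transcripts and of scan day in the members' changes was not tested.

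Among the called sensors, Ifih1 was at -1.60, -1.60, -1.41 and -1.72 in control AL, against -1.01, -1.16, -1.13 and -1.06 in control CR, and rose by 0.49 ± 0.10 (adjusted p = 0.00225). All CR arrays lay above all AL arrays. Ddx58 moved the other way, from -2.06, -2.36, -2.53 and -2.47 to -3.29, -3.51, -2.98 and -3.80, and fell by 1.04 ± 0.23 (adjusted p = 0.00369). A further Ddx58 probe, well above background on 8 of 16 arrays, differed by 1.65 in the opposite direction, and another on all 16 by 0.061. The mean of a gene's probes reversed Ddx58 to 0.22 (adjusted p = 0.357) and left Ifih1 at 0.18, not called (0.441). Zbp1 fell by 0.78 ± 0.26 (adjusted p = 0.0348), from -3.67, -3.42, -3.77 and -3.87 in control AL to -4.44, -4.76, -4.34 and -4.30 in control CR, with no overlap. With slide as a random block Zbp1 was not called (adjusted p = 0.0572), nor after quantile normalization (-0.41, 0.207) or in the authors' deposited log2 values (-0.29, 0.104).

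Of the antiviral effectors, Eif2ak2 rose and Rsad2 and Cmpk2 fell. Eif2ak2 went from -1.31, -1.46, -1.22 and -0.82 in control AL to -0.49, -0.55, -0.75 and -0.36 in control CR, a rise of 0.66 ± 0.17 (adjusted p = 0.00709) without overlap. Rsad2 stood at -2.06, -1.55, -1.13 and -1.21 in control AL and fell by 1.03 ± 0.34 to the control CR values given above (adjusted p = 0.032). Its ranges overlapped, since control CR replicate 3 lay above control AL replicate 1. Of the other 2 Rsad2 probes, both well above background on all 16 arrays, one differed by -1.25 and one by -0.061. Rsad2 was not called with the mean of its probes (-0.78, adjusted p = 0.0686), after quantile normalization (-0.84, 0.0715) or in the authors' deposited log2 values (-0.49, 0.177). Cmpk2 fell by 0.95 ± 0.22 (adjusted p = 0.00479), with control CR at -3.38, -3.21, -3.08 and -3.19 below every control AL array. With the median brain marker level as a covariate in limma, 3 of 34 members were called, against 3279 genes. Cmpk2 (-0.52, adjusted p = 0.2), Eif2ak2 (0.46, 0.171) and the sensor Ddx58 (-0.86, 0.0886) were not among them. Nor were Igtp (0.90, 0.0712), Rtp4 (0.47, 0.238) and Zbp1 (-0.60, 0.29). The other 9 measured effectors were not called.

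Among regulators and GTPases, Rtp4 and Igtp rose and Xaf1 fell. Rtp4, a chaperone and negative regulator of the response, was at 0.28, 0.58, 0.34 and 0.66 in control AL and 1.05, 1.21, 0.87 and 0.88 in control CR, a rise of 0.54 ± 0.19 (adjusted p = 0.0389). Igtp, the GTPase Irgm3, was at 0.78, 1.39, 0.59 and 0.73 and 1.46, 1.38, 1.62 and 1.72, a rise of 0.68 ± 0.23 (adjusted p = 0.0379) with an overlap at control AL replicate 2. Xaf1, which encodes a pro-apoptotic partner of XIAP, stood at -1.38, -1.35, -1.34 and -1.47 in control AL and -2.15, -2.01, -1.91 and -1.80 in control CR. It fell by 0.58 ± 0.12 (adjusted p = 0.00192) with no overlap.

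Without the 5 arrays on which skin or liver transcripts were raised, 0 of 34 members were called in this contrast, with 6 members at an unadjusted p under 0.05 and 908 genes called. Only 1 control AL array was left, so its spread was taken from the other groups. The differences were then 0.82 for Igtp, -1.31 for Rsad2, -0.93 for Ddx58, 0.63 for Ifih1, -0.49 for Xaf1, -0.71 for Cmpk2, -0.58 for Zbp1, 0.34 for Rtp4 and 0.28 for Eif2ak2, all in the direction found with every array. Without control CR replicate 2 alone, 5 members were called, against 6614 of 24826 genes. Leaving out any 1 control array ended the call of Igtp, except for control AL replicate 2, and that of Rtp4, except for control AL replicate 4. It also ended the call of Rsad2, except for control AL replicate 1 and control CR replicate 3, and that of Zbp1, except for control AL replicate 4 and control CR replicate 4.

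**Figure D5:**
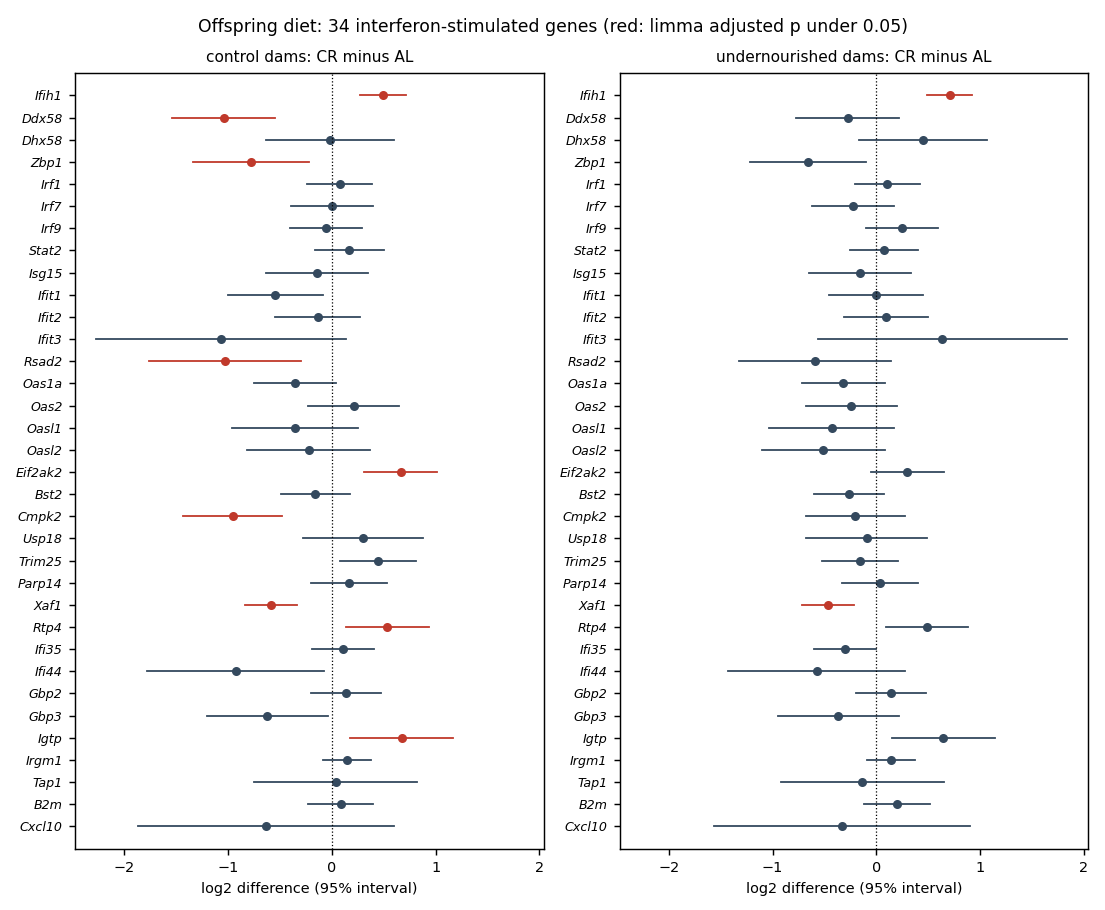
Log2 difference of CR minus AL (horizontal axis) with 95% intervals for the 34 measured genes, in offspring of control dams (left) and of undernourished dams (right). Red genes passed limma's test, 9 on the left and 2 on the right (Ifih1 higher and Xaf1 lower), and scan day goes with the contrast.

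The same contrast in undernourished offspring called 2 of 34 members (5.88%), 1 higher (background 10.5%) and 1 lower (background 9.85%), against 20.4% of all genes. The authors' deposited log2 values gave 12 members higher and 1 lower, against 10322 and 1528 of 24826 genes. With normexp and a floor 3 members were higher and 10 lower, against 2988 and 9964 of 24719 genes. Ifih1 rose by 0.70 ± 0.10 (adjusted p = 0.000468), from -1.27, -1.40, -1.54 and -1.43 in undernourished AL to -0.83, -0.75, -0.61 and -0.64 in undernourished CR. The 4 CR arrays lay above the 4 AL arrays by more than the spread within either group. With the mean of its probes the difference was 0.27 (adjusted p = 0.265). Xaf1 fell by 0.47 ± 0.12 (adjusted p = 0.013), from -1.39, -1.48, -1.46 and -1.42 to -2.06, -1.84, -1.61 and -2.10, with no overlap. Xaf1 fell also in control offspring, and its 8 AL arrays spanned only -1.48 to -1.34. In the authors' deposited log2 values its differences were -0.11 in control and -0.039 in undernourished offspring, neither called. Groups did not overlap for 3 of 34 members, Ifi35 being the third, against 26% of genes. The median difference was -0.15, against -0.0028 over all genes. It was -0.0019 without undernourished CR replicate 4, -0.30 without replicate 3 and 0.25 in the authors' deposited log2 values, where that of all genes was 0.24. Of the members called in control offspring, Igtp and Rtp4 differed by 0.64 ± 0.23 and 0.49 ± 0.19 here (adjusted p = 0.0636 and 0.0773), Ddx58 by -0.28 ± 0.23 and Cmpk2 by -0.20 ± 0.22. Without undernourished AL replicate 1 Igtp and Rtp4 were called higher too (4 members in all, against 4704 of 24826 genes). Without undernourished CR replicate 3 Zbp1 and Oasl2 were called lower (also 4, against 3811 of 24826 genes). Macrophage markers had 0 of 11 called and brain markers 7 lower and 1 higher of 12.

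Whether the effect of maternal diet differed between offspring diets was tested as the interaction. limma called 0 of 34 members and 0.00403% of genes (1), with 4 of 34 members and 9.66% of genes (2397) at an unadjusted p under 0.05. Trim25 had the smallest p, with -0.60 ± 0.24 (adjusted p = 0.5). Cmpk2 and Ddx58 followed at 0.75 ± 0.32 and 0.76 ± 0.33. Ifit3, another RNA-binding relative of Ifit1, had the largest estimate, 1.70 ± 0.79, with an interval of 0.0031 to 3.40. Its arrays spread widely, at 0.90, 0.041, -0.35 and -2.14 in undernourished CR and -1.95, -1.92, -0.85 and -0.30 in control CR. Ifi35 and Ifit1 were at -0.41 ± 0.20 and 0.54 ± 0.30. No member thus passed a test of the difference between control and undernourished offspring, whatever the counts of calls in each.

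Other genes of the pathway were taken from a list of 27 ligands, receptors, kinases, adaptors and inhibitors, of which 23 were measured. Probes of Ifnb1, Ifna4 and Ifng did not pass the filter on dim probes, and no probe matched Sting1. limma called 0 of 23 for maternal diet in either group. In CR offspring the receptor subunit Ifnar2 differed by 0.25 ± 0.16. In AL offspring the smallest p values belonged to the kinase Tbk1 (0.58 ± 0.16, adjusted p = 0.155) and the RNA sensor Tlr7 (-1.23 ± 0.42, 0.161). Tlr7 stood at -3.83, -1.81, -3.73 and -3.96 on the control AL arrays, so replicate 2 raised the control mean.

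In control offspring 9 of the 23 were called (39.1%, against 32.3% of all genes), 6 higher in CR (background 17.3%) and 3 lower (background 15%). The receptor subunits split, Ifngr2 rising by 0.58 ± 0.17 (adjusted p = 0.018) and Ifngr1 and Ifnar1 falling by 0.37 ± 0.13 and 0.30 ± 0.11 (0.035 and 0.0445). The kinases Tyk2 and Jak2 rose by 0.94 ± 0.21 and 0.44 ± 0.13, and Irf3, the factor activated downstream of the sensors, by 0.55 ± 0.12. The DNA sensor Cgas rose by 0.43 ± 0.13 and the feedback inhibitor Socs3 by 0.90 ± 0.28, while Tlr7 fell by 1.86 ± 0.42 (adjusted p = 0.00375). Its control CR arrays stood at -5.17, -5.37, -5.28 and -4.95, below every control AL array, but the size of the fall rests in part on control AL replicate 2. In undernourished offspring 0 were higher and 2 lower (8.7% called, against 20.4% of all genes), Ifngr1 by 0.47 ± 0.13 and Tbk1 by 0.52 ± 0.16 (adjusted p = 0.017 and 0.0383). In the interaction 0 of 23 were called. Of 10 measured genes of antigen presentation, Tapbp, the peptide-loading factor tapasin, was called in control offspring with a rise of 0.30 ± 0.11 (adjusted p = 0.044), 1 of 10 against 32.3% of all genes, and 0 of 10 were called in each other comparison.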

How the data were processed

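RNA of tibialis anterior pools was labelled with Cy3 and hybridised to 1-colour Agilent arrays, per the labels' protocols. The authors deposited 1 scanner file per array, made with Agilent Feature Extraction 10.5.1.1 per the submitters' processing notes. The deposited intensity is the processed signal, background-subtracted within the array per the file headers, with 7 significant digits on AL and 3 on CR arrays. Other deposited values are flags of 0 or 1 for outlier, saturated and well above background spots. The authors' deposited log2 values have a median of 0 for every probe over the arrays, with a normalization not given in the sources used here.

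Control spots and outlier spots (53 to 176 per array) were left out, spots of a probe were averaged, and log2 signals were taken relative to each array's 75th percentile. The filter kept 32079 probes, those above background on 4 or more arrays. The brightest stood for a gene. Of 41174 probes 24844 matched a symbol in NCBI's annotation (GRCm38.p6). A probe without a symbol kept its own transcript name as its gene. The 24826 genes tested thus held 15020 symbols, and several of the other names may belong to 1 gene. limma 3.58.1 in R 4.3.3 (lmFit, eBayes) fitted 1 mean per group over 16 arrays, with Benjamini-Hochberg adjustment over 24826 genes and calls at 0.05. Errors after ± are standard errors, n = 4 arrays per group. On simulated data for maternal diet in CR offspring over 24826 genes, 57% of changes of 1 log2 unit and 87% of changes of 2 were recovered, with 8 false calls. Members, lists and tests were chosen with earlier results of these data known.

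Named genes were up to 2 members per role with the smallest p in the first comparison, and in the others the called members (up to 6 per direction) or the 6 with the smallest p. From each further list they were the called genes or the 2 with the smallest p. The 10 genes most like the members were taken by Pearson correlation. Same-numbered AL arrays, which share a slide, deviated together (correlation 0.11 to 0.44). For AL arrays of the 2 maternal groups with different numbers on 1 slide, the correlation ran from -0.025 to 0.25. These ranges overlap, so a pairing by number cannot be told from a shared slide. For CR arrays the correlation was 0.017 to 0.23, not over 0.1 in every pair. Alternatives covered single arrays, replicate and slide blocks, background correction, normalization, probes, the authors' values, the arrays fitted and brain transcripts. Normexp was run on the deposited median spot and median background signals, in place of the planned mean spot signal, which was not used here. 1 gene of the pathway list is not reported here.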

Additional observations from a re-analysis of the deposited data

Results flagged for a closer look

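In each of the 136 sets of 4 arrays (34 genes in 4 groups), the gap between the farthest array and its nearest neighbour was set against the range. The gap was above Dixon's 95% critical value in 4 sets, and chance alone gives about 5%. Oas1a, an enzyme that makes the activator of RNase L, stood at -3.7204 on control AL replicate 1, against -4.13 to -4.08 on the other 3. Usp18 was at -3.2135 on undernourished AL replicate 3, against -2.41 to -2.28. That array also had the raised liver transcript Alb. Gbp3, a guanylate-binding protein, was at 0.3674 on undernourished AL replicate 1, against -0.44 to -0.31. The chemokine Cxcl10 was at -4.3777 on the same array, against -6.01 to -5.76, and it was well above background on 1 of these 4 arrays.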

How the results depend on the processing

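Maternal diet in CR offspring and the interaction gave 0 called members under every alternative run, and maternal diet in AL offspring gave 0 except 1 (Ifi35) without control AL replicate 4. Leaving out 1 array gave 0 to 0, 0 to 1, 5 to 10, 2 to 4 and 0 to 0 members in the order of maternal diet in CR and AL offspring, offspring diet in control and undernourished offspring, and interaction. Over all genes the calls for offspring diet then ran from 6191 to 9108 in control and from 3677 to 5860 in undernourished offspring. The replicate block gave 0, 0, 7, 2 and 0 members, against 0, 6, 8007, 5074 and 0 genes. It ended the calls of Igtp and Rtp4 (adjusted p = 0.065 and 0.0607). The slide block gave 0, 0, 6, 2 and 0 members, against 0, 1967, 6856, 3949 and 12 genes. Slide was a fixed term for maternal diet and the interaction. For offspring diet it was a random block (correlation 0.137), since no slide held both offspring diets, so slide effects were not removed from that contrast. The random block ended the calls of Igtp, Rtp4 and Zbp1 (adjusted p = 0.0655, 0.07 and 0.0572). For maternal diet in AL offspring the 1967 genes stood in place of 8. For offspring diet in control and undernourished offspring, the planned brain covariate (mean of linear levels) gave 7 and 2 called members, against 6076 and 6569 genes. That covariate did not separate the arrays. A covariate from the median level, chosen after that was seen, gave 3 and 4 members, against 3279 and 6220 genes. normexp without a floor gave 0 and 0 (527 and 65 genes) and could not be fitted well on 2 CR arrays, where the 5th percentile of log2 signal was 10.02 and 9.37. A floor, chosen after that run, gave 15 and 13 members, against 11825 and 12952 genes. Quantile normalization gave 5 members in control offspring, against 8811 genes, and the mean of a gene's probes 1 in undernourished offspring, against 5070. In the authors' log2 values 19 and 13 members were called, against 13991 and 11850 genes. Without the 5 arrays that had raised skin or liver transcripts, chosen after seeing the data, 0 were called in control offspring, where 1 control AL array was left and the differences ran from -1.31 (Rsad2) to 0.82 (Igtp), all in their earlier direction. The median of all genes was 0.29 and 0.24 in the authors' values and -0.16 and -0.24 after normexp with a floor, so calls there are relative to another centre. Ddx58 in control offspring turned to 0.22 with the mean of probes, and Zbp1 to 0.15 without a floor. Uncalled differences turned for Ifit2 (-0.0072, no floor) and Usp18 (-0.47 to 0.016 over single arrays left out, above 0 without undernourished CR replicate 1) in CR offspring, and for Ifih1 (-0.034, mean of probes) and Ifi35 (-0.076, without the raised arrays) in AL offspring. Ifi35 turned to 0.021 without the raised arrays in the interaction. The cause of these changes was not tested. The number of arrays and dim signal limit precision. The within-group SD was highest for Cxcl10 (0.89), Ifit3 (0.87) and Ifi44 (0.61).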
